A study of Homo sapiens with 4 samples.

Results

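The nuclear-encoded genes of oxidative phosphorylation were examined in 2 squamous carcinoma lines, FaDu and HSC3, that had received miR-489 or miR-504. Members were the genes on the array whose names begin with NDUFA, NDUFB, NDUFC, NDUFS or NDUFV (complex I), SDHA to SDHD (complex II), UQCR (complex III), COX4 to COX8 (complex IV) or ATP5 (complex V). The rule used names only, and it took 85 of the 30982 gene names on the array, 40 for complex I, 5 for complex II, 7 for complex III, 17 for complex IV and 16 for complex V. FaDu is an established line of human hypopharyngeal squamous cell carcinoma and HSC3 one of tongue squamous cell carcinoma. The 4 groups were FaDu with miR-489, FaDu with miR-504, HSC3 with miR-489 and HSC3 with miR-504, each on 1 two-colour Agilent array 72 h after transfection. On every array the RNA of the miRNA transfectant carried Cy5 and the RNA of that line's control-miRNA transfectant carried Cy3, so that all groups share transfection and the order of the dyes. The series asked which genes respond to the 2 miRNAs in head and neck cancer cells.

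Oxidative phosphorylation takes place in the inner mitochondrial membrane. Complexes I and II pass electrons from NADH and succinate to ubiquinone, complex III passes them on to cytochrome c, and complex IV reduces oxygen. Complexes I, III and IV pump protons, and complex V, the ATP synthase, uses the proton gradient to make ATP. Most subunits are encoded in the nucleus and a small core in mitochondrial DNA; 0 of 26 names listed for the mitochondrially encoded subunits were found on the array.

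The mature sequences of the transfected miRNAs are given here because all ratios below compare cells that received them with control cells. The labels do not state which arm of the hairpin was used. In RefSeq (GRCh38.p14) miR-489-3p lies on the minus strand at chr7:93483947-93483968, miR-504-5p on the minus strand at chrX:138667760-138667781 and miR-504-3p at chrX:138667724-138667744. The capitals mark the seed, bases 2 to 8, which pairs with target mRNAs. The 3 seeds differ from each other.
hsa-miR-489-3p: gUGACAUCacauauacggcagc
hsa-miR-504-5p: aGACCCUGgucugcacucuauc
hsa-miR-504-3p: gGGAGUGCagggcaggguuuc

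The ratio reported below is the log2 of Cy5 over Cy3 after subtraction of the local background, centred so that the median probe of each array is at 0. A value of 1 therefore means a 2-fold higher ratio of transfectant to control signal than that of the median probe. It holds any dye effect of the probe besides a difference in level. Higher or lower than the control refers below to this ratio. Replicate spots of the same probe differed by an SD of 0.052 to 0.059 on this scale, which covers technical error within an array only. PTPN11, which the study examined as a target of miR-489, had log2 ratios of −3.25 and −3.22 on the miR-489 arrays of FaDu and HSC3 and −1.29 and −1.04 on the miR-504 arrays. Of the 12 epithelial and squamous markers listed, 9 were found on the array and all 9 were above background in the controls on the 4 arrays. Of 4 fibroblast, 3 endothelial and 3 leukocyte markers none (0) was above background in Cy3 on all 4 arrays. On the FaDu miR-489 array 1 endothelial marker, VWF, and 1 leukocyte marker were above background in Cy3. On the HSC3 arrays 1 fibroblast marker (miR-489) and 2 (miR-504) were. COL1A2, COL3A1, PECAM1, CDH5 and PTPRC were above background in Cy3 on no array. A single slide, scanned once, held the 4 arrays.

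Of the 85 members, 80 were above background in both channels on all 4 arrays. The other 5 were further isoforms of widely expressed subunits. NDUFA4L2, COX4I2, COX7A1 and COX7B2 were not well above background in either channel on any array. COX6B2, the testis isoform, was above background in Cy3 on 3 arrays, and its second probe was dim as well. Their widely expressed counterparts NDUFA4, COX4I1, COX7A2, COX7B and COX6B1 were all above background in both channels on every array. COX8C was not among the names found. The lung and muscle isoforms of subunits 4 and 7A were thus near background in both carcinoma lines. The probe for COX6A2, the heart and muscle isoform of subunit 6A, was not. The control signal of COX6A2 was 23370 and 16826 units in FaDu and 29213 and 26984 units in HSC3. No second COX6A2 probe was present to set beside it, and whether the signal came from COX6A2 alone was not tested. All 3 genes for the c subunit of the ATP synthase, ATP5G1, ATP5G2 and ATP5G3, were above background on every array.

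The rule also took names that do not stand for subunits. COX7A2L is a factor of respiratory supercomplexes, NDUFAF1 is an assembly factor of complex I, COX4NB is now EMC8 of the endoplasmic reticulum membrane complex, ATP5S is now DMAC2L and SDHAL2 is the pseudogene SDHAP2. SDHAL2 can share signal with SDHA, and its values are uncertain for that reason. NDUFA4, counted here under complex I by its name, is now named COXFA4 and assigned to complex IV. Current symbols differed from those of the array for 21 members, among them all members named ATP5.

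The members as a whole moved little. Their median log2 ratio was 0.04, 0.04, 0.02 and −0.02 for FaDu with miR-489, FaDu with miR-504, HSC3 with miR-489 and HSC3 with miR-504. In the same order it was −0.02, −0.01, −0.02 and −0.01 over all genes above background. Over other genes in the interquartile range of the members' control signal it was 0.11, 0.04, 0.09 and 0.08. The sign of the members' median depended on the scaling. With an intensity-dependent loess normalisation it was −0.21, −0.15, −0.19 and −0.15, and with the deposited ratios −0.26, −0.15, −0.18 and −0.17. The members are brighter than most genes, with a median control signal of 6701 to 10295 units against 328 to 422 units for all genes, and with loess the other genes of their signal range also had negative medians, from −0.10 to −0.09.

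Large changes were few. On each array 1 member, COX6A2, was at least 2-fold lower, 1 of 81 members above background in Cy3 for FaDu with miR-489 and for both HSC3 arrays and 1 of 80 for FaDu with miR-504. Of all genes 8.78%, 5.98%, 8.15% and 5.11% were that much lower on the 4 arrays. At least 2-fold higher were 3, 6, 3 and 5 of 81 members, against 2.86%, 2.34%, 2.71% and 1.97% of all genes. These were NDUFA3, NDUFB11, NDUFB7, UQCRC1, ATP5D and ATP5J2. With 1 array per condition these counts carry no test.

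**Figure D1:**
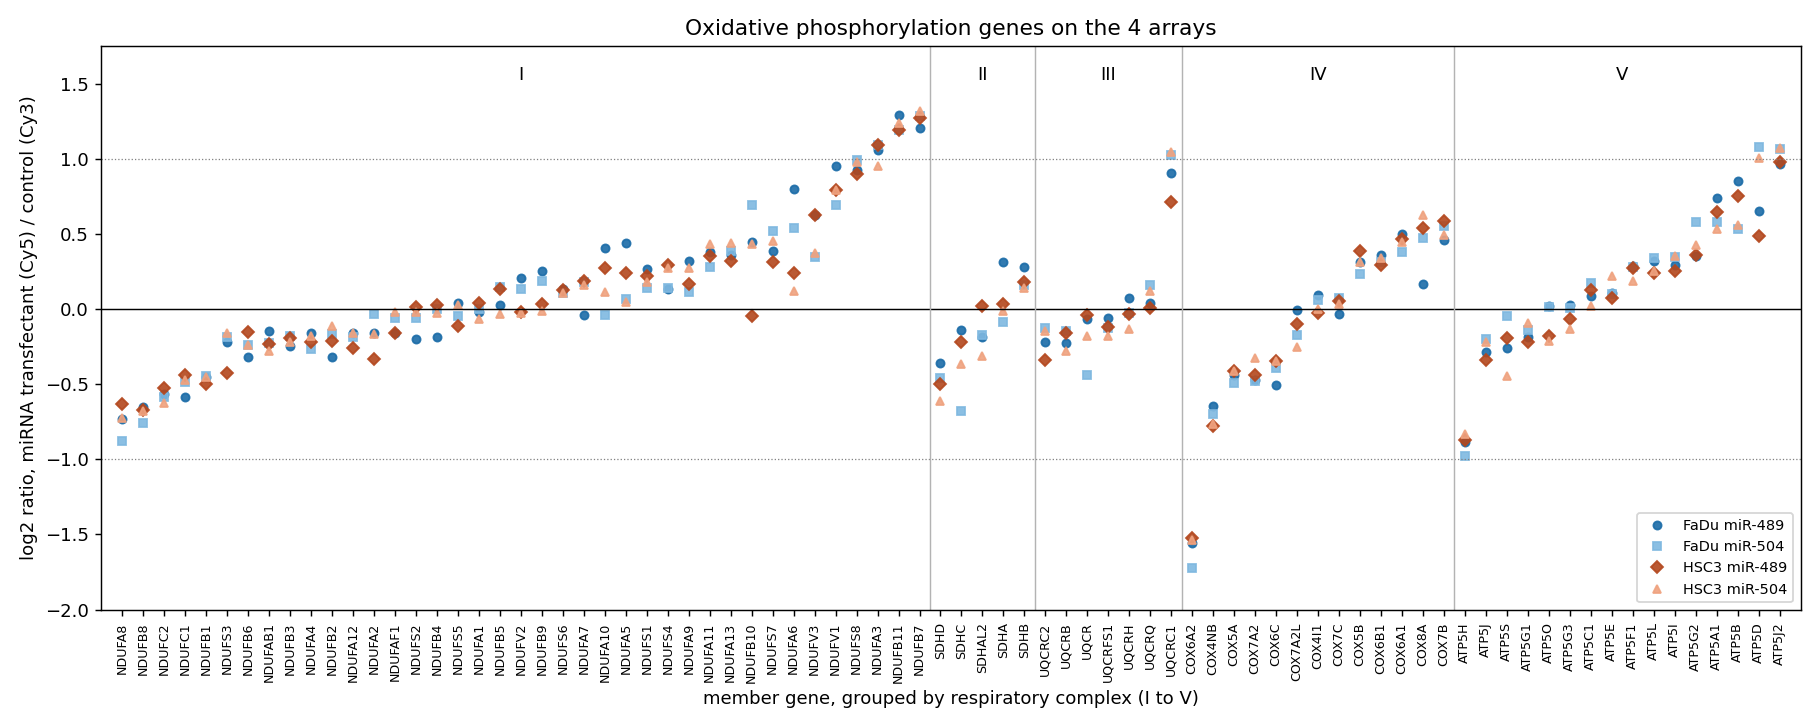
Log2 ratio of miRNA transfectant (Cy5) over control transfectant (Cy3) for the 80 members above background in both channels on all 4 arrays, grouped by complex and ordered by mean; each symbol is 1 array and the dotted lines mark 2-fold. The 4 symbols of a gene lie close together, at heights that run from −1.58 for COX6A2 to 1.27 for NDUFB7 (means of the 4 arrays).

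The order of the members was nearly the same on every array. The SD of a gene's ratio between the 4 arrays had a median of 0.072 over the members, against 0.16 over all genes and 0.10 over other genes of their signal range. The SD between members of their mean ratios was 0.49, close to the 0.52 of all genes. Of the 80 members 63 had the same sign on all 4 arrays, 33 above 0 and 30 below, or 78.8%; this was the case for 68.6% of all genes and for 78.7% of other genes in the members' signal range. The SD between arrays was below 0.2 for 75 of the 80 members (93.8%), for 62.4% of all genes and for 82.3% of other genes in range. FaDu with miR-489 and HSC3 with miR-504 share neither line, miRNA nor control RNA. Across the members their ratios had a Pearson correlation of 0.942 and a Spearman correlation of 0.929, given as a description over genes of the same arrays, slide and dye order; Pearson's r was 0.787 over all genes and 0.862 over other genes in range. Because the dyes were never swapped, a dye effect of a probe and a response common to both miRNAs cannot be told apart in these ratios.

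Within each complex, the highest and lowest members are those by the mean over the 4 arrays, and on single arrays another member could lie beyond them. Among the 40 members of complex I, the NADH dehydrogenase, the highest ratios belonged to accessory subunits of its membrane arm. NDUFB7 had log2 ratios of 1.21 and 1.29 in FaDu after miR-489 and miR-504 and of 1.27 and 1.31 in HSC3. NDUFB11 had 1.29 and 1.19 in FaDu and 1.19 and 1.23 in HSC3. NDUFA3 had 1.05 and 1.09 in FaDu and 1.09 and 0.95 in HSC3. All 12 values lay far above the spot error, and those of 1 gene spanned at most 0.14. NDUFS8, a core subunit with iron-sulphur clusters, followed with a mean of 0.95 ± 0.044 (SD between the 4 arrays). The lowest was NDUFA8, an accessory subunit on the intermembrane-space side, with −0.73 and −0.88 in FaDu and −0.63 and −0.73 in HSC3. NDUFB8, of the membrane arm, had a mean of −0.69 ± 0.046. Genes of the same arm thus stood at both ends of the order. The assembly factor NDUFAF1 had a mean of −0.10 ± 0.073.

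Complex II, the succinate dehydrogenase, showed no member 2-fold away from the control. The highest was SDHB, its iron-sulphur subunit, with 0.28 and 0.16 in FaDu and 0.18 and 0.14 in HSC3. The lowest was SDHD, a membrane anchor, with −0.36 and −0.46 in FaDu and −0.50 and −0.61 in HSC3. SDHD is called from its brightest probe; the means of its other 3 probes were 0.23, −0.20 and −0.08. Its direction therefore depends on the probe.

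In complex III, the cytochrome bc1 complex, both core proteins were measured and differed. UQCRC1 had 0.90 and 1.03 in FaDu and 0.71 and 1.04 in HSC3. UQCRC2 had the lowest mean of the 7 members (−0.21, beside −0.20 for UQCRB), with −0.22 and −0.13 in FaDu and −0.34 and −0.14 in HSC3; on 3 of the 4 arrays another member was lower. UQCRC1 had a positive log2 ratio on every array and UQCRC2 a negative one. Without background subtraction UQCRC2 was at 0.002 after miR-504 (limma).

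Complex IV, the cytochrome c oxidase, held the member with the most extreme ratio. COX6A2 had log2 ratios of −1.56 and −1.72 in FaDu and −1.52 and −1.54 in HSC3. COX6A1, the widely expressed isoform of the same subunit, had a mean of 0.45 ± 0.051; a second COX6A1 probe, for another accession, was not above background in both channels on all arrays. The probes for the isoforms of subunit 6A thus had ratios of opposite sign on all 4 arrays. Each isoform rests on 1 probe, so a difference between isoforms and one between probes cannot be told apart. COX7B was the highest member, with 0.46 and 0.55 in FaDu and 0.59 and 0.49 in HSC3. COX4NB, no subunit of the complex, had a mean of −0.72 ± 0.061.

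In complex V, the ATP synthase, ATP5J2, the f subunit of the membrane part, was highest with 0.97 and 1.07 in FaDu and 0.98 and 1.07 in HSC3. ATP5D, the delta subunit of the central stalk, had 0.65 and 1.08 in FaDu and 0.48 and 1.003 in HSC3. Both miR-504 values of ATP5D were above both miR-489 values. ATP5H, the d subunit of the peripheral stalk, was lowest with −0.88 and −0.98 in FaDu and −0.87 and −0.83 in HSC3. Under 5 other scalings the means of the members named at 2-fold and of ATP5H and NDUFA8 kept their signs; that of COX6A2 ranged from −1.82 to −1.43, that of NDUFB7 from 1.08 to 1.40 and that of ATP5H from −1.20 to −0.74.

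With the lines taken as replicates, limma was fitted to the log2 ratios of the 15725 genes above background in Cy3 on all arrays, 80 members among them. After miR-489, 44 members passed a Benjamini-Hochberg adjusted p of 0.05, 28 higher and 16 lower than the control. Of all genes 58.4% passed, 30.4% higher and 28% lower. After miR-504, 38 members passed, 23 higher and 15 lower, against 51.8% of all genes, 27.1% higher and 24.7% lower. The members were thus called about as often as any gene. The split by direction was set by the scaling: with normexp and loess 12 called members were higher and 42 lower after miR-489 (22.2% higher in place of 63.6%), and 17 were higher and 35 lower after miR-504. Loess alone gave 12 higher and 35 lower after miR-489 and 16 and 33 after miR-504, the deposited ratio 14 and 40 and then 17 and 36, and no background subtraction 35 and 12 and then 33 and 13. Adjusted p-values of limma for the largest members were 0.000789 for COX6A2, NDUFB7 and NDUFB11 after miR-489 and 0.00114 for the same genes after miR-504. SDHB passed after miR-489 (adjusted p = 0.0492, limma) and not after miR-504 (adjusted p = 0.151), and UQCRC2 likewise (adjusted p = 0.0292 and 0.2). Compared directly between the miRNAs, neither passed (limma: SDHB 0.08, adjusted p = 0.766, and UQCRC2 −0.14, adjusted p = 0.559). The fit against the control tests a ratio against 0 and holds any dye effect. Nothing in the labels says that the lines were cultured more than once, so these p-values measure the spread between 2 arrays per miRNA. Leaving out 1 array of the miRNA lowered the count after miR-489 to 27 without FaDu and 28 without HSC3, and that after miR-504 to 14 without FaDu and 16 without HSC3.

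Where a member had several probes, these measured how far a ratio belonged to the probe. In 27 members with at least 2 probes above background in both channels on all arrays, the mean ratios of the probes spanned a median of 0.22, against 0.38 in 3929 genes. The members are brighter than most genes, and these spans were not computed for other genes of their signal range. The span was over 1 for 1 member, 3.7% of the 27, and for 9.98% of all such genes. This member was COX5A, a nuclear-encoded subunit of the oxidase. Its brightest probe gave −0.44, −0.49, −0.41 and −0.41 in FaDu after miR-489 and miR-504 and in HSC3 after the same miRNAs. Its other probe, for the same transcript accession, gave 0.90, 0.86, 0.83 and 0.77. Each probe gave nearly the same value on all 4 arrays, opposite in sign to the other probe, so no direction is given for COX5A. NDUFS1, the largest core subunit of complex I, was alike with means of 0.20 and −0.76. NDUFC2 had means of −0.57 and −1.30, the second from a dim probe with control signals of 51.5 to 108.5 units. Second probes gave 0.87 for NDUFB7, 1.01 for ATP5D and 0.91 for ATP5J2, in the direction of the first. Of 31 other probes in the 27 genes, 23 had the sign of the brightest probe. The mean ratios of these 31 probes and of the brightest probes had a Pearson correlation of 0.6, given as a description.

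**Figure D2:**
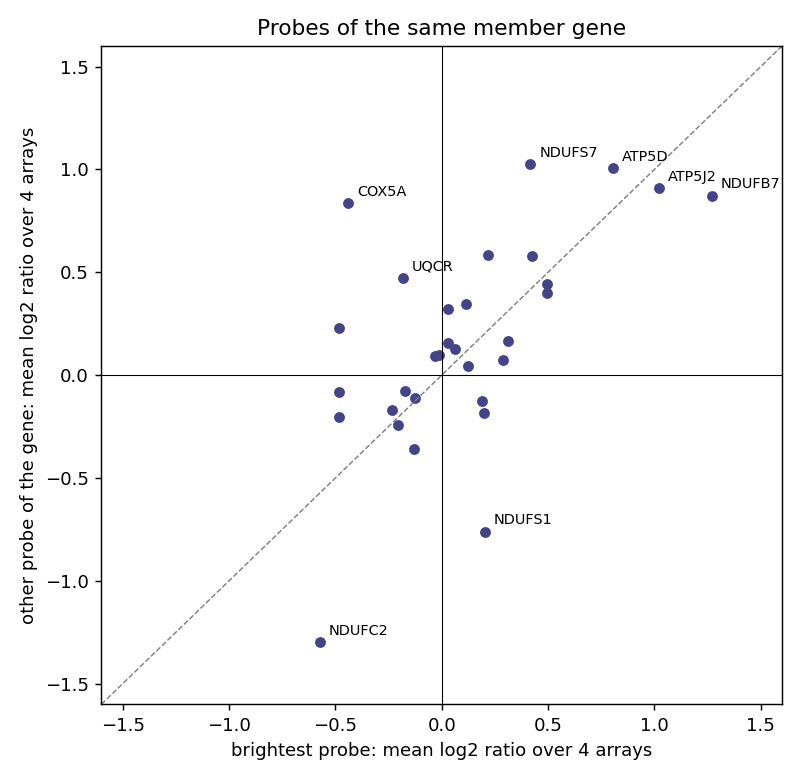
Mean log2 ratio over the 4 arrays of the brightest probe of a member (x axis) and of each other probe of the same gene (y axis), for 31 other probes of 27 members; the dashed line marks equal values. Most points lie near the line, with a Pearson correlation of 0.6 over all points. NDUFB7, ATP5D and ATP5J2 are high on both axes, and COX5A (−0.44 and 0.84) and NDUFS1 (0.20 and −0.76) lie in opposite quadrants.

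The difference between the miRNAs within a line removes a dye effect that both arrays share, and asks whether miR-489 and miR-504 acted differently on the members. The members differed little. The median of the log2 ratio after miR-489 minus that after miR-504 was 0.01 in FaDu (80 members) and 0.02 in HSC3 (81 members), as it was for all genes. The differences ran from −0.43 to 0.54 in FaDu and from −0.52 to 0.33 in HSC3. No member (0) was 2-fold apart in either line, against 3.28% of all genes in FaDu and 2.26% in HSC3. By the brightest probe none (0) was 1.5-fold apart either, whereas 12.3% of all genes were in FaDu and 9.49% in HSC3. Among other genes of the members' signal range these shares were 7.17% and 4.93%. The dim second probe of NDUFC2 was past 1.5-fold in both lines, at −0.81 in FaDu and −0.95 in HSC3. A dim NDUFV3 probe was past it in HSC3, at 0.62. By limma 0 of 80 members and 1.19% of all genes differed between the miRNAs at an adjusted p of 0.05. At an unadjusted p of 0.05 these were 2 members, ATP5D and NDUFV3, and 2862 genes. A missed threshold does not show equal levels, and the intervals are more informative. The 95% interval of the difference lay within 2-fold either way for all 80 members and for 90% of all genes. It lay within 1.5-fold for 72 members and for 60.1% of all genes. The shares of intervals were not computed for other genes of the members' signal range. The lowest bound of any member was −0.88 and the highest 0.80, with a median half-width of 0.29.

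Of the members with the same sign in both lines, ATP5D was farthest below 0, at −0.43 in FaDu and −0.52 in HSC3 (limma: −0.47, 95% interval −0.78 to −0.17, adjusted p = 0.144). Its second probe gave −0.25 and −0.47. Both probes were thus lower after miR-489 than after miR-504 in both lines, by an amount that did not pass the adjustment over all genes. NDUFB10, an accessory subunit of complex I, was at −0.25 and −0.48, and UQCRC1 at −0.12 and −0.33. COX8A, a small subunit of the oxidase, was at −0.31 and −0.09, and ATP5G2 at −0.23 and −0.07. Their intervals all included 0.

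In the other direction, SDHC, a membrane anchor of complex II, was at 0.54 in FaDu and 0.14 in HSC3. NDUFA10, an accessory subunit of complex I, was at 0.45 and 0.16, with 0.40 and 0.12 from its second probe. NDUFA5, of the matrix arm, was at 0.37 and 0.19, with 0.22 and 0.23 from its second probe. For NDUFA10 and NDUFA5 the probes had opposite signs in the mean ratio of the 4 arrays against the control and the same sign between the miRNAs. NDUFV3, beside the NADH-oxidising flavoprotein, was at 0.28 and 0.25 (limma: 0.27, 95% interval 0.0032 to 0.53, adjusted p = 0.269). Its other probes gave 0.49 and 0.62, and 0.35 and 0.26. ATP5B, the catalytic beta subunit, was at 0.32 and 0.19. Over all 31 other probes the sign of the difference was that of the brightest probe for 27 in FaDu and 25 in HSC3, with median absolute differences between probes of 0.091 and 0.065. NDUFC2 was the exception in size, where the dim probe differed from the bright one by 0.83 in FaDu and 1.05 in HSC3.

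**Figure D3:**
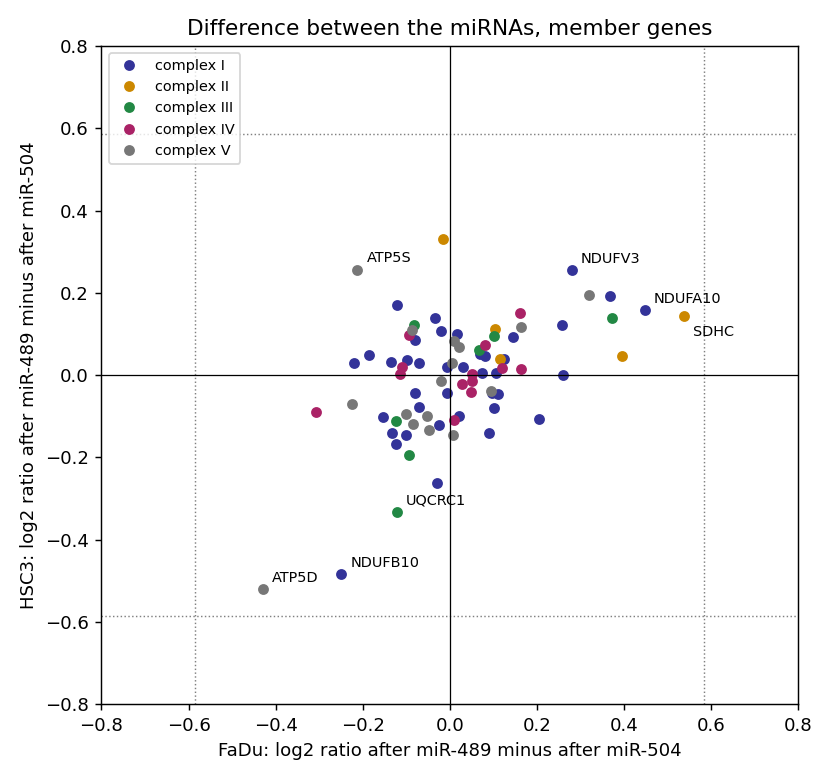
Log2 ratio after miR-489 minus that after miR-504 in FaDu (x axis) and HSC3 (y axis) for the brightest probes of the 80 members, coloured by complex. Dotted lines mark 1.5-fold. All points lie inside the dotted square, with ATP5D (−0.43 and −0.52) nearest to its lower edge and SDHC (0.54 and 0.14) nearest to its right edge.

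The control channel also allows the members' levels in FaDu and HSC3 to be compared. The median member was higher in FaDu by 0.46 on the log2 scale of the centred Cy3 signal, against 0.08 for all genes and 0.13 for other genes of the members' signal range. Of the 80 members 62 were higher in FaDu, against 58.2% of the other genes in range. At least 2-fold higher in FaDu, with both FaDu arrays above both HSC3 arrays, were 11 members, against 11.6% of all genes. At least 2-fold higher in HSC3 was 1 member, against 10.2% of all genes. At 1.5-fold these were 29 members higher in FaDu and 8 higher in HSC3, against 24% and 18.6% of all genes. The lines did not overlap for 67 of the 80 members and for 76.9% of all genes. As shares, 13.8% of members were past 2-fold towards FaDu and 1.25% towards HSC3, and 8.33% and 6.25% of the other genes in range were. Without the HSC3 miR-489 array 17 members were 2-fold higher in FaDu in place of 11. No test is given, because the arrays of a line may carry the same control RNA. In bulk RNA of a line, a difference in all cells and one in a part of the cells cannot be told apart.

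A difference in the same direction was found in the RNA of the miRNA transfectants, which carried the other dye. Both dyes were read from the same spots of the same arrays, so the channels are not separate measurements of the lines. In Cy5 the median member was higher in FaDu by 0.54 between the miR-489 arrays and by 0.44 between the miR-504 arrays, against 0.11 and 0.10 for all genes. In all 3 comparisons 58 of the 80 members were higher in FaDu, against 7299 of 15604 genes and 651 of 1297 other genes in range. With quantile normalisation of Cy3 the members' median was 0.34, against 0.03 for all genes. With it 58 members were higher in FaDu and 7 members were 2-fold higher. The shares of all genes were not computed with this normalisation.

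By complex, all 7 members of complex III were higher in FaDu, with a median of 0.55. In complex I 32 of 39 were higher, with a median of 0.51, and in complex V 13 of 16, with a median of 0.34. In complex II 3 of 5 were higher, with a median of 0.14. In complex IV 7 of 13 were higher, with a median of 0.37, and its members spread from −0.84 to 1.07. Both ends were members that are not subunits, COX7A2L and COX4NB, and COX4NB is among the 7. The subunits of complex IV spread from −0.78 for COX7B to 0.81 for COX4I1, and so lay to either side as well. Other mitochondrial genes were shifted as well: the median was 0.47 for 18 genes of the TCA cycle, 0.38 for 77 mitochondrial ribosomal proteins, 0.35 for 13 electron carriers and exchangers, 0.32 for 23 assembly factors and 0.31 for 16 regulators of mitochondrial biogenesis.

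The members with the largest difference towards FaDu were spread over complexes I, III and V. NDUFV3 had control levels of 3.90 and 3.83 in FaDu and 2.54 and 2.14 in HSC3, on the log2 scale relative to the median probe, a difference of 1.53. Another bright NDUFV3 probe gave 1.52, and a dim one −0.05. UQCRC2 had 4.69 and 4.60 against 3.24 and 3.25, a difference of 1.40. NDUFA6, an accessory subunit of the matrix arm, had 5.14 and 5.08 against 3.70 and 3.72. Its difference was 1.40, with 1.35 from its second probe. ATP5O, which joins the catalytic head of the ATP synthase to its stalk, had 7.29 and 7.17 against 5.95 and 5.77, a difference of 1.37. NDUFAB1, the mitochondrial acyl carrier protein, had 5.20 and 5.28 against 4.03 and 3.99, a difference of 1.23. In all of these the arrays of a line lay far closer to each other than to those of the other line.

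Towards HSC3 the largest was NDUFS4, an accessory subunit of the matrix arm, with 2.33 and 2.42 in FaDu and 3.35 and 3.47 in HSC3, a difference of −1.04. In the transfectants it was −1.13 and −1.20. The pseudogene SDHAL2 followed at −0.90 and NDUFB6, of the membrane arm, at −0.86. COX7A2L, a factor of respiratory supercomplexes, was at −0.84, with −0.90 from its second probe, and COX7B at −0.78. Over the 31 other probes of the members, 28 had the same direction between the lines as the brightest.

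**Figure D4:**
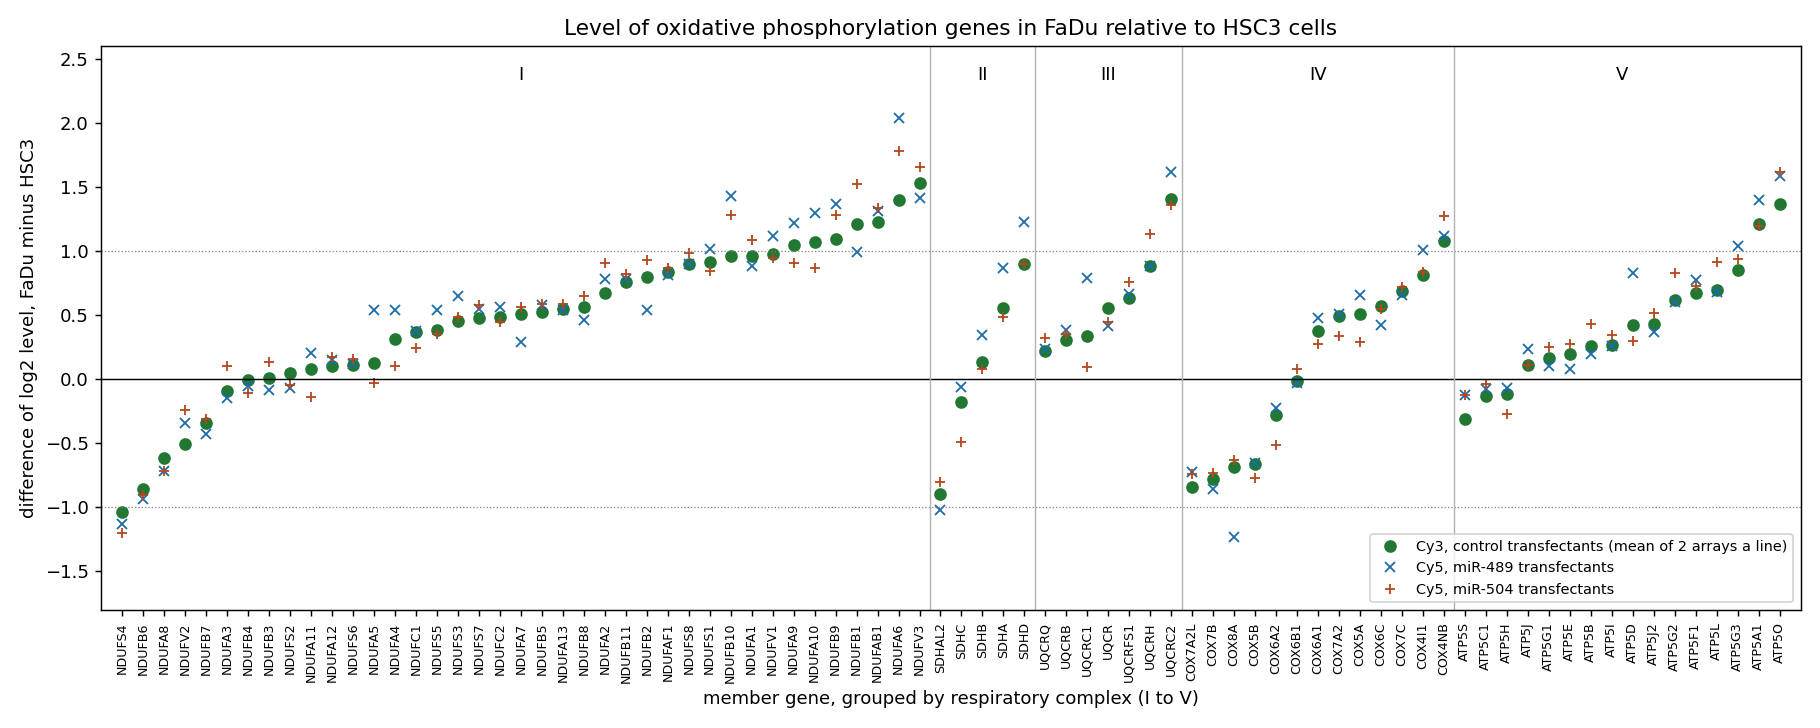
Difference of the log2 level between FaDu and HSC3 for the 80 members, grouped by complex and ordered by the Cy3 value; green circles are Cy3 of the control transfectants (mean of 2 arrays per line), blue and red crosses Cy5 of the miR-489 and miR-504 transfectants, and dotted lines mark 2-fold. Most members lie above 0 (62 of 80 in Cy3), and the crosses follow the circles from NDUFS4 at −1.04 to NDUFV3 at 1.53.

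NDUFA6 was also a member whose ratios differed between the lines for both miRNAs. Its log2 ratios were 0.80 and 0.54 in FaDu after miR-489 and miR-504 and 0.24 and 0.12 in HSC3. Its second probe gave 0.88 and 0.72 in FaDu and 0.45 and 0.26 in HSC3. Both probes were thus higher in FaDu than in HSC3 after either miRNA; with 1 array per condition this was not tested.

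Other genes of the pathway were taken from lists. Few were 2-fold away from the control, and with the main scaling 0 differed between the miRNAs by limma. Some other scalings called a few, all lower after miR-489 than after miR-504. With normexp these were 3 mitochondrial ribosomal proteins and 1 carrier or exchanger, with 445 of all genes called. Without background subtraction they were 2 ribosomal proteins (346 of all genes). With normexp and loess they were 4 ribosomal proteins and 1 carrier or exchanger (528 of all genes). Of all genes 58.4% were called after miR-489 (30.4% higher, 28% lower) and 51.8% after miR-504 (27.1% higher, 24.7% lower), and the counts of the lists are read beside these. Assembly factors were called after miR-489 for 13 of 23 (8 higher, 5 lower) and after miR-504 for 14 of 23 (8 higher, 6 lower). Mitochondrial ribosomal proteins were called for 45 of 77 (28 higher, 17 lower) and 42 of 77 (26 higher, 16 lower). Genes of the TCA cycle were called for 9 of 18 (8 higher, 1 lower) and 8 of 18 (6 higher, 2 lower). For electron carriers and exchangers the counts were 10 of 13 (7 higher, 3 lower) and 7 of 13 (5 higher, 2 lower), and for regulators of biogenesis 8 of 16 (4 higher, 4 lower) and 5 of 16 (3 higher, 2 lower). These shares stood between 31.2% and 76.9%, on both sides of those of all genes. The splits depended on the scaling here too. With loess the ribosomal proteins were 16 higher and 25 lower after miR-489 and 20 and 23 after miR-504, the carriers 4 and 4 and then 2 and 4, the assembly factors 6 and 6 and then 5 and 6, the regulators 2 and 4 and then 3 and 4, and the genes of the TCA cycle 5 and 2 and then 5 and 4. At an unadjusted p of 0.05 between the miRNAs, 4 of the 23 assembly factors, 10 of the 77 ribosomal proteins, 2 of the 18 genes of the TCA cycle, 2 of the 13 carriers and 2 of the 16 regulators passed, against 18.2% of all genes.

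At least 2-fold higher on some array were ATPAF1, an assembly factor of the ATP synthase, SCO2, a copper chaperone of the oxidase, and the mitochondrial ribosomal proteins MRPL2 and MRPL54. MRPL2 was highest, with 1.69 and 1.42 in FaDu and 1.41 and 1.48 in HSC3. At least 2-fold lower were MRPL24, MRPL35, MRPL42 and MRPL43. MRPL24 had −1.48 after miR-489 and −0.16 after miR-504 in FaDu, and −0.97 and −0.08 in HSC3. It was thus lower after miR-489 than after miR-504 in both lines (limma: adjusted p = 0.077). The coactivator PPARGC1A met the bound on the FaDu miR-489 array alone, where its control signal of 49 units was above background; its Cy5 signal was not well above background on any array.

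The promoters of the members, which the rule did not use, were searched for motifs. Promoters of nuclear respiratory genes are known for sites of NRF-1, of the ETS factor GABP and of YY1. RefSeq promoters (GRCh38.p14, from 250 bases before to 50 after the start) were matched for 69 members. The letters GCGCA and GCGC with any base between them, for NRF-1, were found on either strand in 14 of the 69 (20.3%) and in 6.28% of all 27305 promoters. CCGGAAG, for ETS factors, was found in 20 (29%) and in 10.7%, and AANATGGC, for YY1, in 21 (30.4%) and in 6.82%. Among promoters of coding genes alone these shares were 8.58%, 14.2% and 7.92%. At least 1 of the 3 was found in 40 members (58%) and in 20.8% of all promoters. A match of letters is a description and not a bound site, and no binding was measured here. Windows of 30 bases around the match, in capitals, are shown for members described above, for NRF-1 in NDUFA3 (chr19:54102772-54102801, plus strand), NDUFA8 (chr9:122159764-122159793, minus strand), SDHD (chr11:112086753-112086782, plus strand), UQCRC1 (chr3:48609674-48609703, minus strand) and ATP5O (chr21:33915809-33915838, minus strand).
NDUFA3: gtgctccaggGCGCACGCGCagccctggga
NDUFA8: gttgccggatGCGCATGCGCaggcgccgtg
SDHD: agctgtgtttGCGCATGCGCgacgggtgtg
UQCRC1: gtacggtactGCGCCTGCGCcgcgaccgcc
ATP5O: acgccaacgcGCGCGTGCGCccttgcgcgt

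In UQCRC1 and ATP5O the match is on the opposite strand. NDUFA3 and UQCRC1 were among the members with high ratios and NDUFA8 among those with low ones, whereas the direction of SDHD depended on the probe. ETS matches are shown for NDUFB7 (chr19:14572073-14572102, minus strand) and for ATP5H (chr17:75047053-75047082, minus strand; match on the opposite strand), and YY1 matches for NDUFA6 (chr22:42090729-42090758, minus strand) and NDUFS4 (chr5:53560649-53560678, plus strand).
NDUFB7: tgcctaaatgacCCGGAAGctgtgtctgac
ATP5H: cccgggaagataCTTCCGGaaccagccctc
NDUFA6: gatgctttggcAAGATGGCggggagcggcg
NDUFS4: ttgcctgcagcAAGATGGCggcggtgtcaa

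NDUFB7 and ATP5H stood at opposite ends of their ratios, and NDUFA6 and NDUFS4 at opposite ends of the comparison of the lines. These pairs were chosen after their values were seen.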

How the data were processed

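The authors deposited scanner output of 4 two-colour arrays, made with Agilent Feature Extraction, holding spot and local background intensity as medians and means. The deposited log10 ratio per spot and the deposited table of processed values, which were identical (largest difference 0), were used as an alternative only. Deposited flags, other values of 0 or 1, served as filters for signal above background and for outliers. The study's methods name background-subtracted median intensities and a global normalisation, as used here. Median log2 ratios of 0.58, 0.65, 0.58 and 0.45 were removed for miR-489 and miR-504 in FaDu and then in HSC3. Cy3 was above background for 58.2% to 59.2% of spots and Cy5 for 61.2% to 62.6%; 118 to 137 outlier spots were left out and 0 were saturated. The number of arrays limits the precision. A gene took its brightest probe, and all 121 member probes had 1 spot each. Lower counts needed Cy3 above background and higher counts Cy5; a dim signal on the other side was raised to the lowest signal above background.

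limma 3.58.1 (R 4.3.3) was fitted over 15725 genes with the Benjamini-Hochberg adjustment at 0.05, checked on simulated data. Alternatives were normexp (offset 50), no background subtraction, mean spot intensity, loess (span 0.3), both together, the deposited ratio, other filters and probe rules, 1.5-fold, the line as a block, each array left out and, for Cy3, quantile and 75th percentile scaling. Members and lists were chosen with earlier results of these data known. Genes named were the highest and lowest member per complex, members at 2-fold, the 5 largest differences in each direction between miRNAs (same sign in both lines) and between lines, isoform pairs, members whose probes differed by over 1, and other listed genes at 2-fold; others were chosen after their values were seen. Current symbols came from RefSeq, 83 members by accession and 2 by symbol. Protein sequences were not used here. Python 3.11.15, pandas 2.3.3 and matplotlib 3.10.9 were used for sequences and plots.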

Additional observations from a re-analysis of the deposited data

Results flagged for a closer look

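The difference between the miRNAs had opposite signs in the lines for ATP5S (now DMAC2L, no subunit of the ATP synthase): the log2 ratio after miR-489 minus that after miR-504 was −0.21 in FaDu and 0.26 in HSC3, so that FaDu minus HSC3 was −0.47. Each value was beyond 2 SDs of replicate spots. The second ATP5S probe gave −0.21 and 0.15. With 1 array per condition the difference between the lines was not tested.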

How the results depend on the processing

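The direction of the members' median ratio was not stable. In the order miR-489 and miR-504 in FaDu, then in HSC3, it was 0.19, 0.18, 0.16 and 0.10 without background subtraction, −0.21, −0.15, −0.19 and −0.15 with loess, −0.26, −0.15, −0.22 and −0.19 with normexp and loess, and −0.26, −0.15, −0.18 and −0.17 with the deposited ratio; with normexp it was 0.10 on both FaDu arrays. Members at least 2-fold lower numbered 2, 3, 2 and 2 with loess, 3, 3, 2 and 2 with normexp and loess, 3, 3, 2 and 3 with the deposited ratio, 4, 5, 4 and 3 with no filter on dim probes, 6, 6, 5 and 8 at 1.5-fold, and 2 on both miR-489 arrays with the mean of a gene's probes. Members higher numbered 5 (FaDu miR-489) with normexp; 7 and 5 (FaDu and HSC3 miR-489) without background subtraction; 3 and 2 (FaDu and HSC3 miR-504) with loess; 1, 2 and 2 (FaDu miR-489, FaDu miR-504 and HSC3 miR-504) with normexp and loess; 2 and 2 (miR-504) with the deposited ratio; and 12, 11 and 9 (FaDu miR-489, HSC3 miR-489 and HSC3 miR-504) at 1.5-fold. The causes were not tested. Between the miRNAs, the FaDu median was −0.084 with normexp and loess, and 1 member in each line was 1.5-fold apart with no filter. By limma 26 of 83 members were called after miR-489 with no filter; with each array left out in turn the counts were 27 to 33 for miR-489, 14 to 37 for miR-504 and 0 to 0 between the miRNAs, where a lone array is assumed to vary like the others. The line as a replicate block, which pairs the arrays of a line, gave 0 members between the miRNAs. Reversed were SDHB after miR-504 with normexp and loess (−0.0035) and UQCRC2 after miR-504 without background subtraction (0.002). Between the lines, the median was 0.39 to 0.54 with each array left out; members 2-fold higher in FaDu numbered 10 to 17 then (17 without HSC3 miR-489), 7 with quantile normalisation and 29 at 1.5-fold, and those higher in HSC3 1 to 1 and, at 1.5-fold, 8. The comparisons with Cy5 and with other genes of the members' signal range were chosen after seeing the data.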
